A study of Mus musculus with 8 samples.

Results

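The genes described here are 7 enzymes of cholesterol synthesis (Hmgcs1, Idi1, Fdps, Fdft1, Sqle, Lss and Cyp51) and the transcription factor gene Srebf2, read in the pancreas of mice with and without an added allele called OG. They were chosen by name. They are 8 of the 29621 genes to which transcripts of the libraries could be assigned, and all 8 passed the filter on low counts. Their working name joins synthesis with uptake, but none of the 8 encodes an uptake receptor. Srebf2 is the tie to uptake, because its protein controls genes of both processes.

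Bulk RNA-seq was made from 4 libraries labelled KPC and 4 labelled KPC-OG. All 8 came from C57BL/6 mice at postnatal day 42 that carried p48-Cre, a Cre-activated oncogenic allele and floxed Trp53 (Trp53fl/fl). KPC-OG mice carried R26tm1(LSL-OG) in addition, an allele at the Rosa26 locus behind a loxP-stop-loxP cassette. p48-Cre is expressed from the Ptf1a locus, so recombination is directed to the epithelial lineage of the pancreas, and other cell types of the organ keep the unrecombined alleles. The pancreas was perfused, frozen and pulverised, and total RNA was sequenced after ribosomal depletion, so each library mixes every cell type of the organ. The labels do not say that each library is a separate mouse, and the p-values measure the spread between libraries.

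As background, cells build cholesterol from acetyl-CoA through mevalonate. Isoprenoid units made from mevalonate are joined into farnesyl diphosphate, 2 of which are joined into squalene, and squalene is closed into lanosterol and trimmed to cholesterol. The SREBP-2 protein, encoded by Srebf2, is held in the endoplasmic reticulum by Scap and the Insig proteins while sterol is plentiful. When sterol runs low it is carried to the Golgi, cleaved, and its released part enters the nucleus and activates the genes of this pathway at sterol regulatory elements.

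The promoter sequence of 5 of the 8 genes (Hmgcs1, Cyp51, Lss, Idi1 and Srebf2) was in the RefSeq promoter table used, on GRCm38.p6. The 250 bases before the start are printed for 4 of them, 5′ to 3′ on the strand of the gene. Hmgcs1 is the enzyme that passed the test, Cyp51 and Lss are the enzymes with the highest and lowest fold change, and Srebf2 is the regulator. Capitals mark matches on either strand to 3 motifs: TCACNCCAC for the sterol regulatory element, CCAAT for the box of that name, and GGGCGG for the GC box.
Hmgcs1 (chr13:119690101-119690350, plus strand): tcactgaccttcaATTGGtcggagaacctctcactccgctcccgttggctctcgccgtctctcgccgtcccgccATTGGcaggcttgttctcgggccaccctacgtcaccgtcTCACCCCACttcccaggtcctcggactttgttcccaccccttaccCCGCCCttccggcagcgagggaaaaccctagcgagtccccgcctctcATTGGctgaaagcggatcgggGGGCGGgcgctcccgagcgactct
Cyp51 (chr5:4104698-4104947, minus strand): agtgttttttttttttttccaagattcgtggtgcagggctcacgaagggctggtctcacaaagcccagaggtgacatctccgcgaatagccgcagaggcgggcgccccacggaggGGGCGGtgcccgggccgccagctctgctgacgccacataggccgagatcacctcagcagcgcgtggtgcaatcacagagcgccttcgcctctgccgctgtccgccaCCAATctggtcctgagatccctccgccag
Lss (chr10:76531355-76531604, plus strand): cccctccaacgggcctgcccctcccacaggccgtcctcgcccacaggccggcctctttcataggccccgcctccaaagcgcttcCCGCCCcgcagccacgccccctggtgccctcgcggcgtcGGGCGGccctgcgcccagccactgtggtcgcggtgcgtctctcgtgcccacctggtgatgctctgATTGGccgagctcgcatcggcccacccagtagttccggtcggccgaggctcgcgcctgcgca
Srebf2 (chr15:82147019-82147268, plus strand): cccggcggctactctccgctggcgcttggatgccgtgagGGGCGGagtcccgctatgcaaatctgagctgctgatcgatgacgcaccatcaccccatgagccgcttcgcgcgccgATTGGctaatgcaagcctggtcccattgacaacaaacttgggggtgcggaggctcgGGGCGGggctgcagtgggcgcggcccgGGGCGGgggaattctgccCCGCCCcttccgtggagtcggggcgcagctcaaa
The sterol regulatory element letters matched in Hmgcs1 alone of the 5 windows, as TCACCCCAC 137 bases before the start on the strand of the gene. Only this exact string was searched, and elements that differ from it in a letter are not marked. A window without a match may therefore still hold a sterol regulatory element. The same letters were found in 346 of all 32851 windows of this length in the table (1.05%). CCAAT was found in 5 of the 5 windows, against 33.8% of all windows, and GGGCGG in 5 of the 5, against 32.7%. All windows were taken without matching their base composition, so these shares cannot show that a motif is particular to the genes described here. No searched motif overlapped another in these windows, and a match describes letters, not binding.

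Library composition bears on every value that follows. The KPC libraries held 7373286 to 11292570 estimated reads and the KPC-OG libraries 13671606 to 18292115. Genes with at least 1 count numbered 14587 to 15871 in KPC and 18251 to 19774 in KPC-OG. Scaling by the trimmed mean of M-values (TMM), which matches the bulk of genes between libraries, gave factors of 0.483 to 0.653 in KPC and 1.14 to 2.28 in KPC-OG. With this scaling the median log2 fold change of the 14267 genes tested was 0.09, and with library sizes alone it was 1.82. Levels are given below as CPM, counts per 1000000 of the TMM-scaled library size, and fold changes are KPC-OG over KPC, relative to the bulk of genes. With library sizes alone each gene named below as having fallen, Fntb excepted, had a log2 fold change above 0. The test was edgeR's quasi-likelihood test with Benjamini-Hochberg adjustment over all 14267 genes, called below an adjusted p of 0.05.

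Of the 8 genes, Hmgcs1 alone was called higher in KPC-OG and none was called lower. Across all genes tested, 17.4% were called higher and 16.6% lower. At an unadjusted p under 0.05, 3 of the 8 were higher (Hmgcs1, Cyp51 and Fdps) and 0 were lower. DESeq2 called 2 of the 8 higher, where it called 19.1% of all genes higher, and 0 lower (19.1% of all). limma-voom called 1 higher (12.2% of all genes) and 0 lower (16.6% of all). The median log2 fold change of the 8 was 0.08, beside 0.09 for all genes tested. In none of the 8 were the CPM values of the 2 groups fully apart, while 34.5% of all genes tested had groups that did not overlap (17.6% higher and 17.0% lower in KPC-OG).

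Hmgcs1 encodes cytosolic HMG-CoA synthase, which makes the substrate from which mevalonate is formed. It lies on the plus strand of chromosome 13 at 119690379 to 119708260 (GRCm38). Its level in KPC 1 to 4 was 19.7, 22.5, 14.3 and 22.6 CPM, and in KPC-OG 1 to 4 it was 34.2, 35.3, 21.9 and 39.9 CPM. KPC-OG 1, 2 and 4 lay above every KPC library, and KPC-OG 3 lay within the KPC range. The means were 19.8 ± 3.89 and 32.8 ± 7.70 CPM (SD, n = 4 each). The log2 fold change was 0.72 ± 0.20 (SE; 95% interval 0.27 to 1.18), a 1.65-fold rise with an edgeR adjusted p of 0.0206. The call was lost without KPC 1 (adjusted p 0.0558), KPC 3 (0.0549), KPC-OG 2 (0.0535) or KPC-OG 4 (0.0604). Without KPC-OG 3 the log2 fold change was 0.88 (edgeR adjusted p 0.00196). In bulk RNA, a change in the number of cells of a type and a change in RNA per cell cannot be told apart.

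Idi1 encodes isopentenyl diphosphate isomerase, which interconverts the 2 isoprenoid building units. Its levels were 8.02, 19.2, 5.57 and 12.7 CPM in KPC 1 to 4 and 12.4, 13.8, 8.38 and 13.8 CPM in KPC-OG 1 to 4. The KPC range thus enclosed the KPC-OG range, and the highest KPC library had 3.44 times the level of the lowest. The log2 fold change was 0.08 ± 0.32 (SE; 95% interval -0.65 to 0.80; edgeR adjusted p 0.877). The interval is wide, and the KPC values rest on few reads, with 21 counts in KPC 3.

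Fdps encodes farnesyl diphosphate synthase, which stands where the sterol pathway parts from the branches to prenylated proteins, dolichol and ubiquinone. Its levels were 7.83, 14.6, 5.84 and 14.2 CPM in KPC 1 to 4 and 20.6, 18.8, 10.6 and 18.4 CPM in KPC-OG 1 to 4. KPC-OG 1, 2 and 4 lay above every KPC library, and KPC-OG 3 fell between the lower and the upper pair of KPC libraries. The means were 10.6 ± 4.46 and 17.1 ± 4.42 CPM (SD, n = 4 each), with a log2 difference of 0.67 ± 0.30 (SE; 95% interval 0.00 to 1.34) that did not pass (edgeR adjusted p 0.111). It passed without KPC-OG 3, at a log2 fold change of 0.84 (edgeR adjusted p 0.0317).

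Fdft1 encodes squalene synthase, the first enzyme committed to sterols. It had 23.5, 16.0, 18.6 and 14.9 CPM in KPC 1 to 4 and 18.4, 20.2, 13.8 and 22.1 CPM in KPC-OG 1 to 4. The groups overlapped almost wholly, with means of 18.2 ± 3.84 and 18.6 ± 3.58 CPM (SD, n = 4 each). The log2 difference was 0.04 ± 0.19 (SE; 95% interval -0.38 to 0.45; edgeR adjusted p 0.901).

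Sqle encodes squalene epoxidase, a rate-limiting oxygen-using step after squalene. It was the steadiest of the 8 genes among KPC libraries, at 11.5, 12.0, 13.5 and 13.3 CPM, a highest-to-lowest ratio of 1.18. KPC-OG 1 to 4 had 11.4, 13.1, 8.71 and 13.4 CPM, and only KPC-OG 3 lay clearly below the KPC values. The log2 difference was -0.10 ± 0.16 (SE; 95% interval -0.47 to 0.26; edgeR adjusted p 0.656). That interval leaves out a fold change of the size measured for Hmgcs1.

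Lss encodes lanosterol synthase, which closes epoxidised squalene into the first sterol. It had 13.8, 11.5, 16.7 and 16.0 CPM in KPC 1 to 4 and 12.0, 12.2, 12.6 and 12.5 CPM in KPC-OG 1 to 4. The KPC-OG libraries lay close together (12.3 ± 0.299 CPM) and inside the KPC range (14.5 ± 2.39 CPM; SD, n = 4 each). The log2 difference of -0.23 ± 0.14 (SE; 95% interval -0.54 to 0.08) did not pass (edgeR adjusted p 0.234). Transcripts annotated as protein-coding held 58.2%, 24.5%, 0% and 58.1% of the Lss reads in KPC 1 to 4 and 58.7%, 48.8%, 34.3% and 38.0% in KPC-OG 1 to 4, the rest lying on other transcript types such as retained introns. On coding transcripts alone the difference was 0.14 with an edgeR adjusted p of 0.890, so the sign of the Lss difference depends on which transcripts are summed.

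Cyp51 encodes lanosterol 14-alpha-demethylase, the first step after lanosterol. It had 11.3, 19.0, 7.70 and 20.4 CPM in KPC 1 to 4 and 28.4, 26.9, 16.8 and 28.3 CPM in KPC-OG 1 to 4. KPC-OG 1, 2 and 4 lay close together and above every KPC library, and KPC-OG 3 lay within the KPC range. The means were 14.6 ± 6.11 and 25.1 ± 5.61 CPM (SD, n = 4 each). The log2 difference of 0.77 ± 0.29 (SE; 95% interval 0.12 to 1.41), the highest of the 8, did not pass in the edgeR fit (adjusted p 0.0646). DESeq2 called it (adjusted p 0.0403), and so did the edgeR fits without KPC-OG 3 (0.92, adjusted p 0.0238) and without KPC 4 (0.97, adjusted p 0.0424).

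Srebf2 encodes the transcription factor that drives the enzymes above. It had 26.7, 34.0, 21.2 and 33.8 CPM in KPC 1 to 4 and 30.7, 31.4, 26.0 and 34.3 CPM in KPC-OG 1 to 4. The ranges overlapped, with means of 28.9 ± 6.14 and 30.6 ± 3.45 CPM (SD, n = 4 each). The log2 difference was 0.08 ± 0.16 (SE; 95% interval -0.28 to 0.44; edgeR adjusted p 0.750), which concerns transcript level only, since SREBP-2 is controlled by cleavage.

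**Figure D1:**
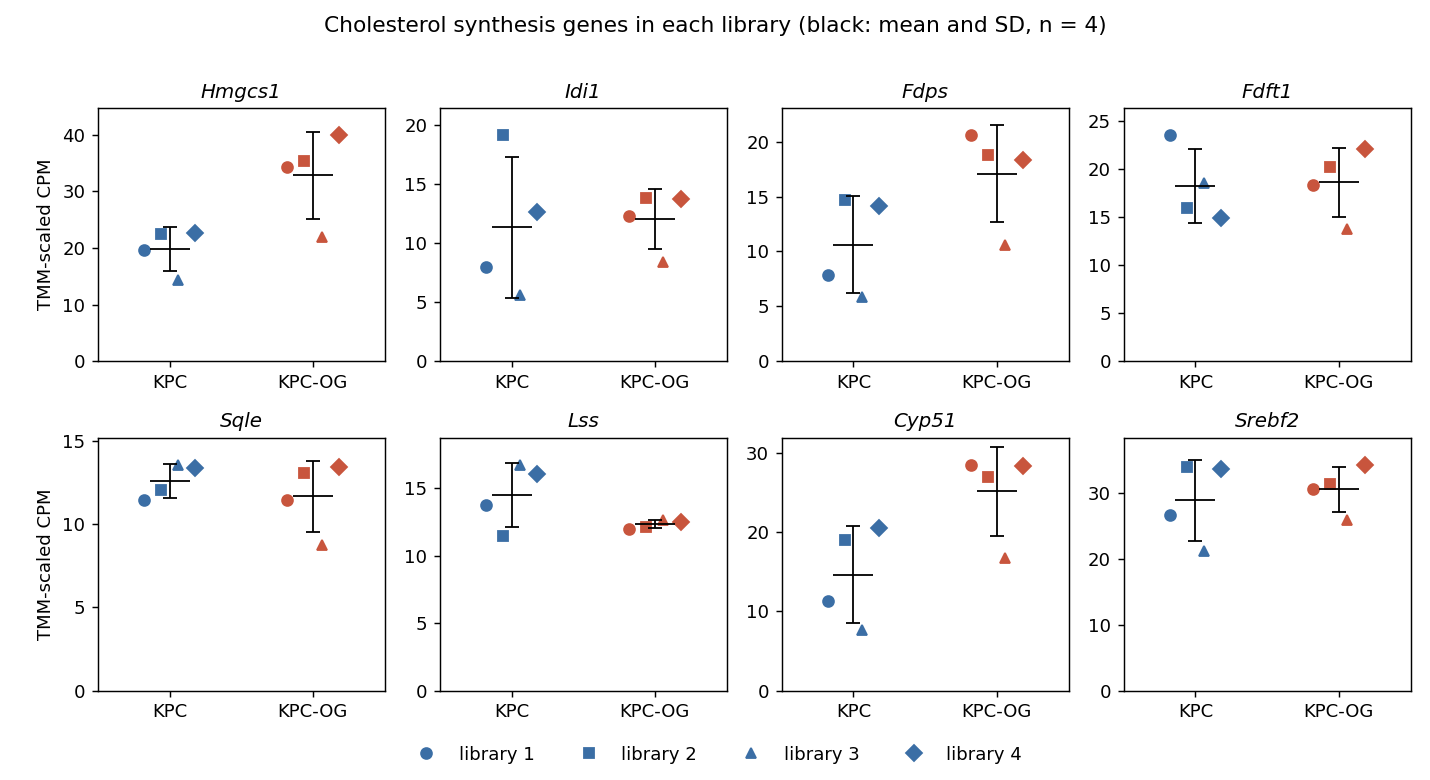
TMM-scaled level (CPM) of each of the 8 genes in each of the 4 KPC and 4 KPC-OG libraries, with the group mean and SD. KPC-OG 1, 2 and 4 lie above all KPC libraries for Hmgcs1, Fdps and Cyp51, KPC-OG 3 lies lower, and the other 5 genes overlap throughout.

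Several of these genes were high or low in the same libraries of a group. In KPC, libraries 2 and 4 were above libraries 1 and 3 for Hmgcs1, Fdps, Idi1, Cyp51 and Srebf2. In KPC-OG, library 3 was the lowest for 7 of the 8 genes, Lss being the exception. With each group's mean removed, the log2 level of Hmgcs1 followed the mean of the other 7 genes over the 8 libraries with r = 0.96, Srebf2 with 0.94, Cyp51 with 0.93, Fdps with 0.93 and Idi1 with 0.83. Sqle (0.50), Fdft1 (0.03) and Lss (-0.49) followed it less closely or ran against it. These correlations share libraries and scaling factors and describe the 8 libraries only.

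Other measured features also differed between these libraries, but not in the same way in both groups. Summed lymphocyte markers stood at 53.3 and 58.4 CPM in KPC 2 and KPC 4 and at 2.29 and 2.12 CPM in KPC 1 and KPC 3. In KPC-OG 1 to 4 the lymphocyte sums were 3.90, 63.0, 39.5 and 17.4 CPM, so KPC-OG 3 was not the lowest. Summed proliferation markers were also highest in KPC 2 (174 CPM) and KPC 4 (95.9 CPM) among KPC libraries, and lowest in KPC-OG 3 (55.5 CPM) in its group. KPC-OG 3 had the highest summed acinar (109221 CPM) and adipocyte (249 CPM) markers and the lowest duct markers (601 CPM) of its group. Among KPC libraries, however, KPC 2 had the highest adipocyte (96.4 CPM) and the lowest duct (263 CPM) markers. The part of these features in the gene levels was not tested.

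The proportions among the 8 genes do not depend on how libraries are scaled. As a share of the summed counts of the 8, Hmgcs1 was 16.1%, 15.2%, 13.8% and 15.3% in KPC 1 to 4 and 20.4%, 20.6%, 18.4% and 21.8% in KPC-OG 1 to 4. Cyp51 was 9.22%, 12.8%, 7.44% and 13.8% in KPC and 16.9%, 15.7%, 14.1% and 15.5% in KPC-OG. Both were higher in every KPC-OG library than in any KPC library. Sqle went the other way, from 9.38%, 8.08%, 13.1% and 9.02% in KPC to 6.81%, 7.61%, 7.34% and 7.33% in KPC-OG, again without overlap. The shares of the other 5 genes overlapped between the groups. Hmgcs1 and Cyp51 thus took up a greater part of the 8 genes' reads in KPC-OG, and Sqle a smaller part. Relative to the bulk of genes the log2 difference of Sqle was -0.10 (edgeR adjusted p 0.656). Shares without overlap were found for 3 of the 8, and no rate of this was computed for other genes. In CPM, 34.5% of all genes tested had groups that did not overlap. A share must fall where another rises, and the shares of the 8 genes are given as a description with no test.

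**Figure D2:**
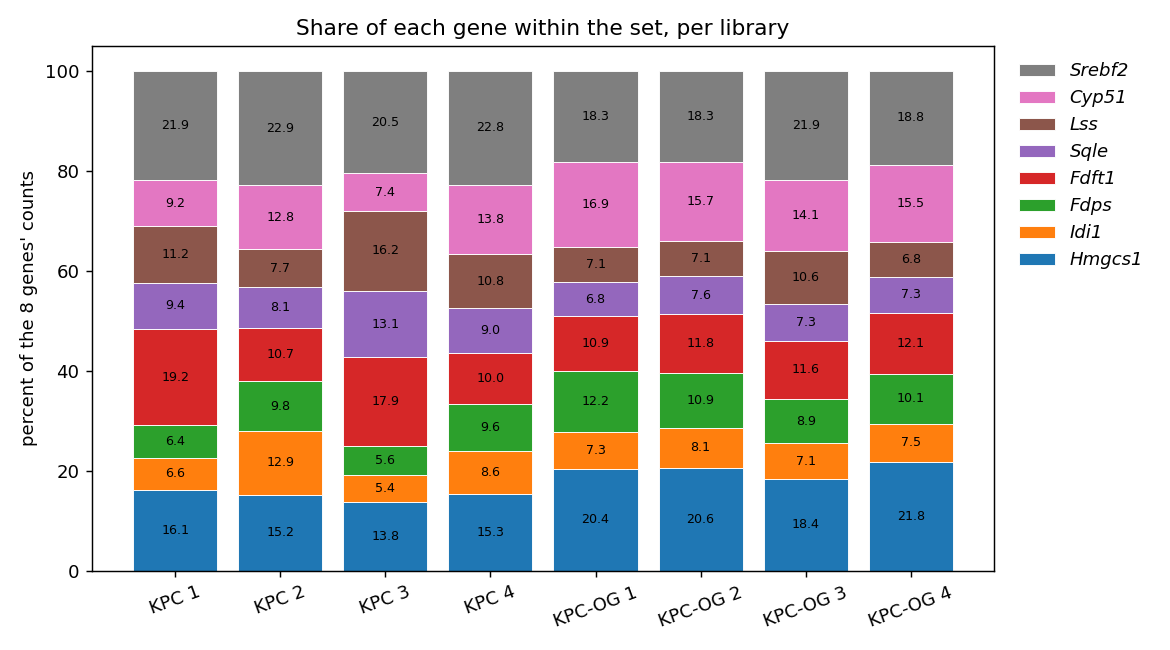
Share (percent) of the summed counts of the 8 genes held by each gene, stacked in one bar per library, KPC on the left and KPC-OG on the right. Hmgcs1 and Cyp51 shares are higher, and Sqle shares lower, in all 4 KPC-OG libraries than in any KPC library.

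Measured against all reads, rather than against the bulk of genes, all 8 genes were higher in KPC-OG. Together they held 59.0, 97.1, 55.2 and 83.3 gene-level CPM without scaling factors in KPC 1 to 4 and 306, 379, 135 and 414 in KPC-OG 1 to 4, means of 73.7 ± 19.97 and 309 ± 124 (SD, n = 4 each) and a ratio of 4.19. All 8 were called higher by edgeR with library sizes alone, but so were 91.7% of all genes tested, so this count says nothing particular to cholesterol synthesis. The same held for the deposited TPM (transcript abundance corrected for length), where limma called all 8 higher along with 90.7% of genes, or 90.4% with a smaller pseudocount. Library sizes re-centred on the median gene called 0 of the 8 higher (6.43% of all genes). Upper quartile scaling called 2 (20.1% of all), and counts thinned to one depth 2 (15.7% of all).

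Per transcript length, in TPM, Fdps was the most abundant of the 8 by group mean in both groups, with KPC at 7.07 ± 3.57 and KPC-OG at 36.1 ± 15.5 (SD, n = 4 each). In KPC it was followed by Fdft1 (5.05), Hmgcs1 (4.94), Srebf2 (4.68), Cyp51 (3.78), Sqle (3.61), Idi1 (3.52) and Lss (3.09 TPM). In KPC-OG the order was Hmgcs1 (26.5), Cyp51 (22.3), Fdft1 (16.8), Srebf2 (15.6), Idi1 (12.4), Sqle (10.5) and Lss (9.35 TPM) after Fdps. No neighbouring pair in either order differed by more than the larger of their SDs. The order of means did not hold in each library. Fdft1 was ahead of Fdps in KPC 1 (5.54 against 4.26 TPM) and KPC 3 (5.37 against 3.87 TPM). Hmgcs1 was ahead of Fdft1 in KPC 2 and KPC 4, and Cyp51 was ahead of Fdft1 in KPC 4 and behind it in KPC-OG 3. Lss was the lowest of the 8 in 1 of 4 KPC and 3 of 4 KPC-OG libraries.

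**Figure D3:**
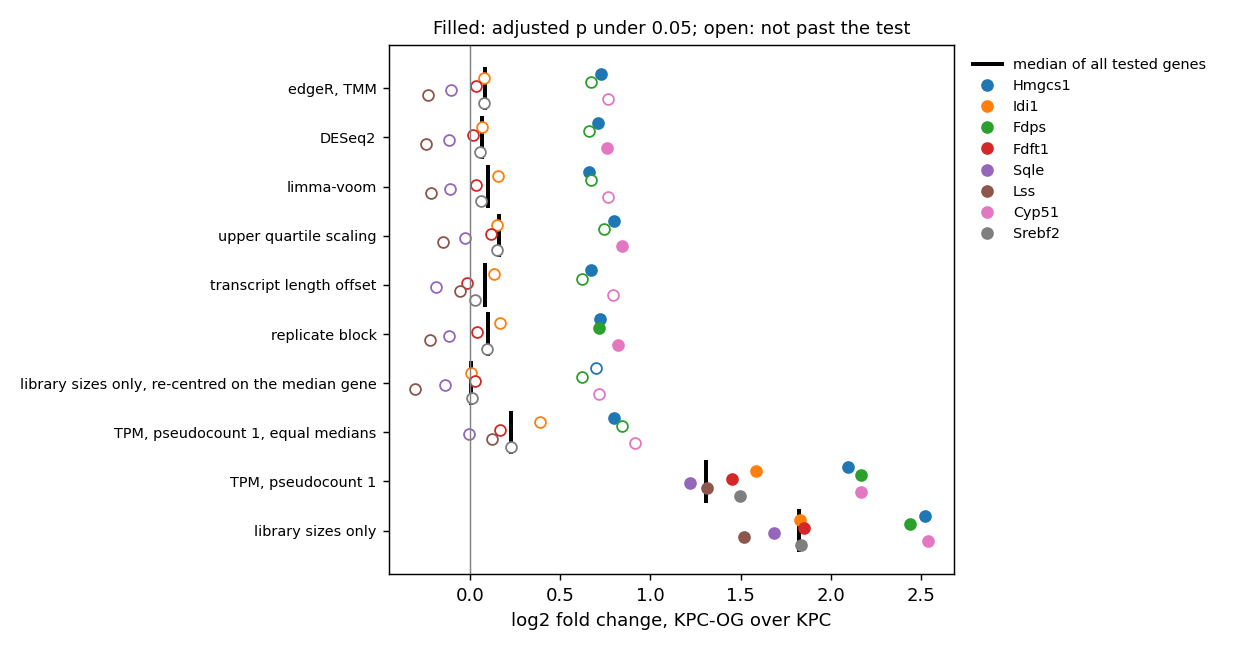
Log2 fold change (KPC-OG over KPC) of each of the 8 genes under 10 scalings and tests, with filled points for an adjusted p under 0.05 and a black bar at the median of all tested genes. With library sizes alone or TPM as deposited all 8 genes lie above 1, beside medians of 1.82 and 1.31, and under the other 8 settings all lie below 1.

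Some of these genes share sequence with copies elsewhere, which limits how surely reads are theirs. Of the 20-base words of the Fdps transcripts, 80.5% also occur in another gene, mainly the pseudogenes Gm3571, Gm5873 and Gm8163, each of which was listed at 0 reads in all libraries. For Fdft1 the figure was 53.6%, from the pseudogene Gm6781 and from Ctsb, the cathepsin B gene, which overlaps it on the opposite strand. Idi1 had 20.2%, mainly from Gm13502, and Cyp51 had 5.73%, mainly from Akap9. Hmgcs1 (0.186%), Srebf2 (0.218%), Sqle (2.97%) and Lss (3.18%) shared little. Adding pseudogene reads to their parent gene changed no call among the 8. For Sqle, the transcript Sqle-202 held 50.2% and 42.8% of its TPM in KPC 1 and KPC 4 and under 1% in the other 6 libraries.

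The rest of the sterol pathway was read from a list of 12 further enzymes, all tested. Of these, 3 rose, 1 fell and 8 did not pass, with a median log2 fold change of 0.40, beside 17.4% higher and 16.6% lower for all genes tested. DESeq2 called 4 higher and 1 lower, and limma-voom 2 higher and 1 lower. Tm7sf2, a sterol 14-reductase that acts straight after Cyp51, rose from 1.97 to 5.59 CPM (1.53 ± 0.31 on the log2 scale, SE; edgeR adjusted p 0.00492). Its KPC level rests on few reads, with 6, 15, 9 and 9 counts in KPC 1 to 4. On coding transcripts alone its log2 difference was 0.94 (edgeR adjusted p 0.204). Ebp, the sterol isomerase, rose from 8.44 ± 2.23 to 16.3 ± 2.63 CPM (SD, n = 4 each; edgeR adjusted p 0.00571), with every KPC-OG library at 13.2 CPM or more and every KPC library at 10.9 CPM or less. Its log2 fold change was 0.95 on all transcripts and 1.82 on coding transcripts alone (edgeR adjusted p 0.0135), and with library sizes re-centred on the median gene the call was lost (0.0768). Msmo1, the methyl sterol oxidase after Cyp51, rose by 0.68 ± 0.23 on the log2 scale (SE; edgeR adjusted p 0.0464). That call was lost on leaving out any library but KPC 2 or KPC-OG 3, with adjusted p up to 0.122, and with limma-voom (0.0919), a transcript length offset (0.0654) or re-centred library sizes (0.301). On coding transcripts alone it was kept, at 2.13 (edgeR adjusted p 0.0320). Sc5d, a late desaturase, fell by 0.39 on the log2 scale (SE 0.12; edgeR adjusted p 0.0323), a call lost on leaving out any library but KPC 2 or KPC 4 (up to 0.0853). It was also lost with upper quartile scaling (0.0670), no filter (0.0741), TPM with equal medians (0.222) and re-centred library sizes (0.319). Dhcr7, a late reductase, had 6.74 CPM in KPC and 6.60 CPM in KPC-OG and did not pass. Acat2, which makes acetoacetyl-CoA at the pathway's entry, differed by 0.82 on the log2 scale without passing (edgeR adjusted p 0.0681).

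Of 8 genes on a list of SREBP pathway control, 1 rose, 2 fell and 5 did not pass (median log2 fold change -0.15). For all genes tested the shares were 17.4% higher and 16.6% lower. DESeq2 and limma-voom each gave the same counts for the list. Insig1, which retains the SREBP-Scap complex and is itself an SREBP target, had 83.6, 79.3, 75.1 and 92.7 CPM in KPC 1 to 4 and 49.0, 39.6, 45.9 and 40.5 CPM in KPC-OG 1 to 4. The groups were fully apart, and Insig1 fell by 0.92 on the log2 scale (SE 0.13; edgeR adjusted p 0.00103). Scap, the sterol sensor that carries SREBP to the Golgi, fell from 46.4 ± 8.79 to 28.5 ± 1.48 CPM (SD, n = 4 each; edgeR adjusted p 0.00472). Stard4, a cytosolic sterol carrier and SREBP-2 target, rose from 4.62 ± 1.43 to 8.29 ± 0.974 CPM (SD, n = 4 each; edgeR adjusted p 0.0167). Its call was lost without KPC 1 (0.0507) or KPC-OG 4 (0.0532), on coding transcripts alone (0.122) and with re-centred library sizes (0.192). With library sizes alone, where most genes were higher, the log2 values of Insig1 and Scap were 0.80 and 1.04, so both fell relative to the bulk of genes and not relative to all reads.

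**Figure D4:**
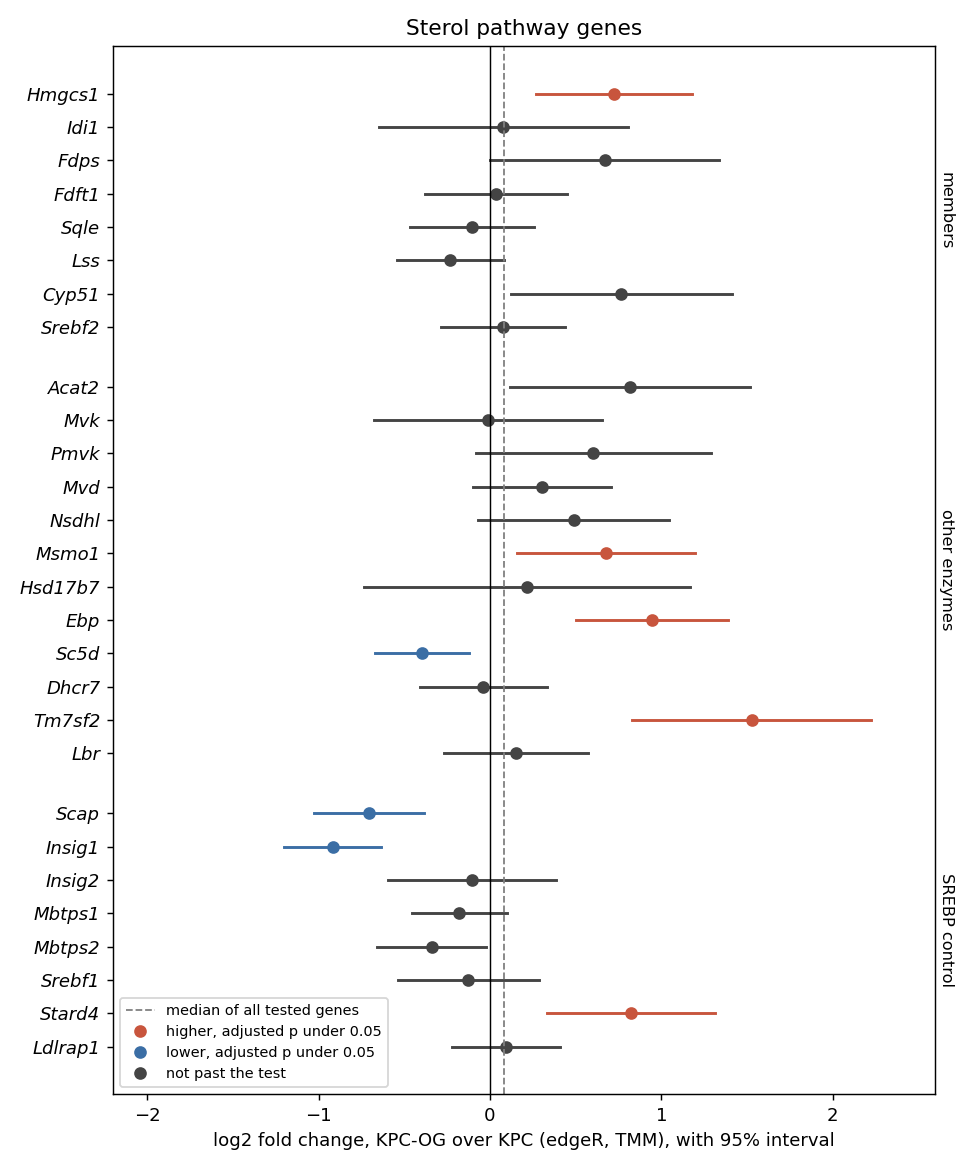
Log2 fold change (KPC-OG over KPC, with 95% interval) of the 8 genes, the 12 other sterol enzymes and the 8 SREBP control genes, with genes at an adjusted p under 0.05 in red (higher) or blue (lower) and a dashed line at the median of all tested genes. Tm7sf2 and Ebp stand highest among the sterol enzymes that passed, and Insig1 and Scap lie below 0 with this scaling.

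Fatty acid synthesis genes of the SREBP-1 program showed no common direction. Of 10 tested, 1 rose, 1 fell and 8 did not pass (median log2 fold change 0.17), beside 17.4% higher and 16.6% lower for all genes. DESeq2 called 2 higher and 1 lower, and limma-voom 1 higher and 1 lower. Me1, the malic enzyme that supplies NADPH, rose from 9.63 ± 5.55 to 35.2 ± 4.50 CPM (SD, n = 4 each; 1.85 on the log2 scale; edgeR adjusted p 0.00229). Fads1, the delta-5 desaturase, fell from 54.5 ± 4.95 to 23.9 ± 2.46 CPM (SD, n = 4 each; edgeR adjusted p 4.65e-04). Fasn, Scd1 and Acaca did not pass, and each was highest in KPC-OG 3, at 314, 529 and 64.8 CPM, the library with the most adipocyte marker signal. The part of that signal in these values was not tested.

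In the isoprenoid branch outside sterols, 0 of 9 genes rose, 3 fell and 6 did not pass (median log2 fold change -0.20). Across all genes tested, 17.4% were called higher and 16.6% lower. No gene of this branch was higher at an unadjusted p under 0.05, nor by DESeq2 or limma-voom. Fntb, the beta subunit of protein farnesyltransferase, was called lower by 2.51 on the log2 scale (edgeR adjusted p 6.62e-04). However, a processed transcript of 370 bases without a coding sequence held between 96.4% and 99.8% of the Fntb reads in every library. On coding transcripts the Fntb difference was 0.10 (edgeR adjusted p 0.921), so the call rests on reads of the noncoding transcript. Dhdds and Nus1, the 2 subunits of the dolichol-making prenyltransferase, fell by 0.45 and 0.49 on the log2 scale (edgeR adjusted p 0.0338 and 0.0377). Leaving out single libraries lost the Dhdds call in 5 cases (up to 0.0904) and the Nus1 call in 6 (up to 0.104). Both calls were also lost on coding transcripts alone (adjusted p 0.489 for Dhdds and 0.0544 for Nus1), with no filter, and with 3 other scalings, and that of Dhdds with a transcript length offset (0.159) and on counts thinned to one depth (log2 -0.28, 0.327).

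Genes of cholesterol uptake, trafficking, storage and oxysterols moved in both directions. Of 13 tested, 5 rose, 3 fell and 5 did not pass (median log2 fold change 0.24), beside 17.4% higher and 16.6% lower for all genes. DESeq2 called 5 higher and 3 lower, and limma-voom 3 higher and 3 lower. The lipoprotein receptors split. Vldlr, the very low density lipoprotein receptor, fell from 29.2 ± 4.65 to 9.71 ± 3.04 CPM (SD, n = 4 each; edgeR adjusted p 9.49e-04), and Scarb1, the high density lipoprotein receptor, fell from 29.6 ± 1.75 to 19.2 ± 4.05 CPM (SD, n = 4 each; edgeR adjusted p 0.0102). The Scarb1 call was lost with equal TPM medians (0.0922). Lrp1, a broad endocytic receptor, had 81.9, 116, 107 and 108 CPM in KPC 1 to 4 and 208, 171, 166 and 318 CPM in KPC-OG 1 to 4. The groups did not overlap, and Lrp1 rose by 1.06 ± 0.23 on the log2 scale (SE; edgeR adjusted p 0.00587).

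Inside the lysosome, the acid lipase gene Lipa rose from 14.0 ± 2.32 to 25.8 ± 4.99 CPM (SD, n = 4 each; edgeR adjusted p 0.00466). Npc2, which lifts free cholesterol out of the lysosomal lumen, rose from 34.1 ± 4.53 to 54.4 ± 3.97 CPM (SD, n = 4 each; edgeR adjusted p 0.00356), while its membrane partner Npc1 had 19.9 and 20.99 CPM and did not pass. With re-centred library sizes the calls of Lrp1 (0.0569), Lipa (0.0939) and Npc2 (0.166) were lost. Nceh1, a hydrolase of stored cholesteryl ester, fell from 37.1 ± 2.85 to 15.0 ± 2.42 CPM (SD, n = 4 each; edgeR adjusted p 4.65e-04). The oxysterol genes Cyp27a1 and Ch25h also rose (edgeR adjusted p 0.00592 and 0.0368), both from low levels, and are named here after their values were seen. In KPC 1 to 4 Cyp27a1 had 9, 14, 6 and 16 counts and Ch25h 2, 2, 0 and 3. Neither was among the 3 genes of this list that limma-voom called higher. Of the cholesterol efflux and LXR genes, 5 of 7 were tested and 0 passed, beside 34.1% of all genes tested. At an unadjusted p under 0.05, 1 was higher (Abcg1) and 0 were lower, and neither DESeq2 nor limma-voom called any. Abca1, the main efflux pump, had 54.3 ± 9.86 and 66.5 ± 10.97 CPM (SD, n = 4 each; edgeR adjusted p 0.207).

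**Figure D5:**
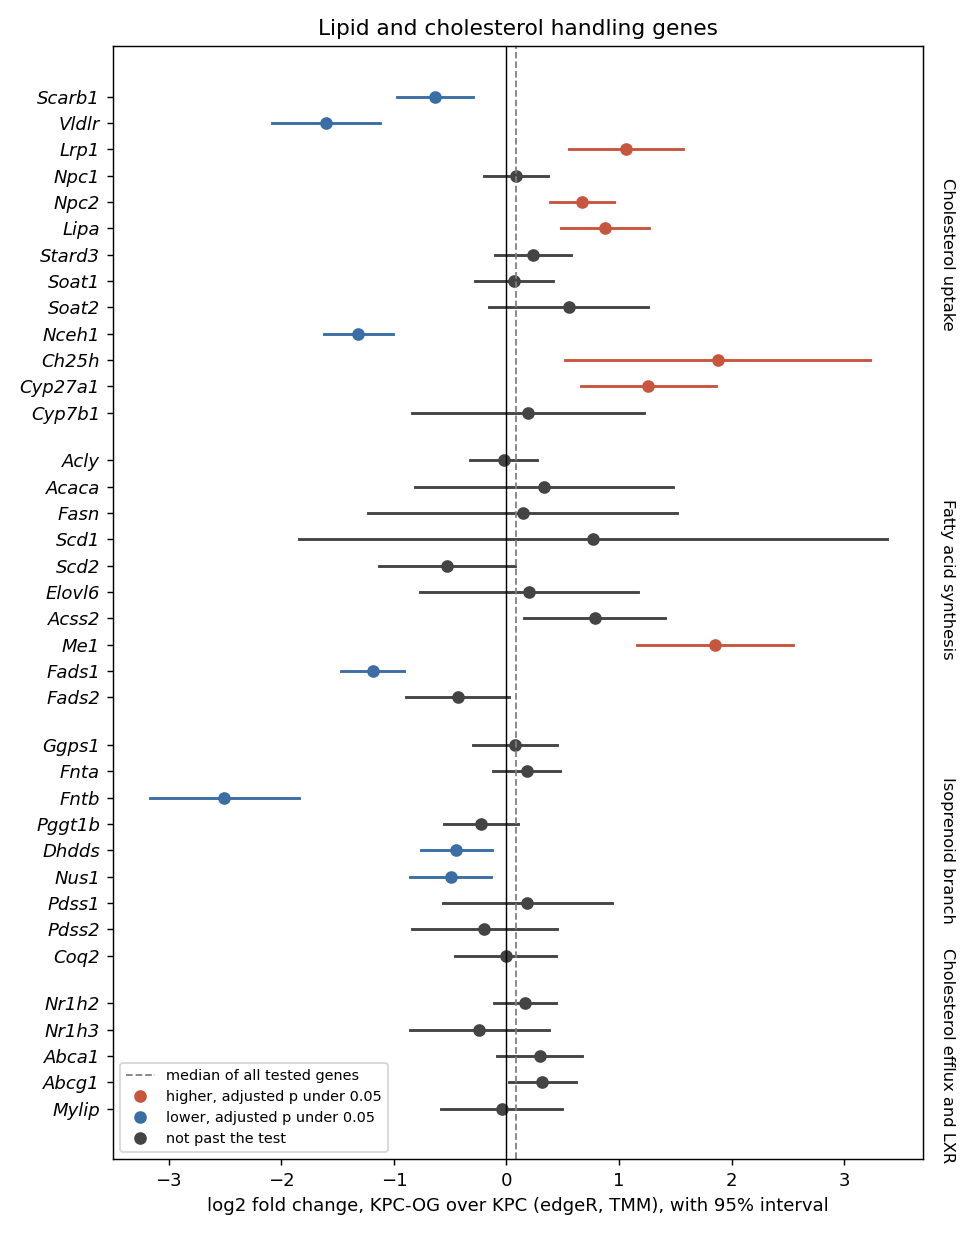
Log2 fold change (KPC-OG over KPC, with 95% interval) of genes of fatty acid synthesis, the isoprenoid branch, efflux, and uptake, trafficking and storage, with genes at an adjusted p under 0.05 in red (higher) or blue (lower) and a dashed line at the median of all tested genes. Lrp1, Lipa and Npc2 lie above 0 and Vldlr, Scarb1 and Nceh1 below 0 with this scaling.

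Markers of other cells moved between the groups beside these genes. Of 9 acinar markers 8 fell, with a summed level of 183373 to 356508 CPM in KPC and 17929 to 109221 CPM in KPC-OG. Duct markers rose in 6 of 7 (263 to 349 against 601 to 1313 CPM), macrophage markers in 8 of 8 (134 to 220 against 329 to 483 CPM) and fibroblast markers in 6 of 7 (973 to 1293 against 1631 to 4620 CPM). Lymphocyte and adipocyte markers had 0 calls in either direction by edgeR, DESeq2 or limma-voom, and 0 at an unadjusted p under 0.05. The part of these cells in the levels of Hmgcs1, Ebp, Insig1, Lrp1, Npc2 or Lipa was not tested. Of the adrenal cortex, whose cells take up and spend much cholesterol, markers summed to 1.503 to 5.84 CPM in KPC and 4.52 to 7.86 CPM in KPC-OG, with Hsd3b1 at 0 in all 8 libraries and Cyp11b1 and Nr5a1 at 0 in KPC. Of the 3 adrenal markers tested, Cyp21a1 rose from 0.350 to 2.23 CPM (edgeR adjusted p 0.0210). It had 0, 0, 4 and 2 counts in KPC 1 to 4, and its groups overlapped (KPC 3 at 1.06 CPM, KPC-OG 3 at 0.917 CPM). limma-voom called 0 adrenal markers. Cyp11a1 had 0.274 and 0.883 CPM, with groups that did not overlap, and did not pass (adjusted p 0.1004), and neither did Star. Liver markers summed to 254 CPM in KPC-OG 2 and 335 CPM in KPC-OG 3 and to at most 29.2 CPM elsewhere. Without both of these libraries the log2 fold change of Hmgcs1 was 0.92 (edgeR adjusted p 0.0064). Without KPC-OG 3 alone it was 0.88 (0.00196), and without KPC-OG 2 alone it was 0.69 (0.0535). The part of liver RNA was not tested.

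Among 13554 other genes with a mean of at least 1 CPM, those whose levels most closely followed the mean of the 8 over the 8 libraries, after the group means were removed, were Pkdcc (r = 0.99), Pfn2 (0.99), Sept9 (0.98), Borcs8 (0.98) and Rps4l (0.98). They encode a secreted tyrosine kinase, a profilin, a septin, a subunit of the lysosome-positioning complex BORC and a ribosomal protein S4 relative. None is a sterol enzyme. With 8 libraries and this many genes, values of this size are a description.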

How the data were processed

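Bulk RNA-seq of 8 pancreas libraries was analysed from 1 table per library. Per the file headers, the authors quantified reads with Sailfish 0.6.3 (20-base words, 1000 iterations, bias correction) against an Ensembl release 76 index, and the deposited values are estimated counts and TPM per transcript. Other tools in the submitters' processing notes are STAR 2.0.4b, limma, edgeR and bcl2fastq. The genome build was not given in the sources used here. Of 86127 transcripts, 83827 matched a GENCODE M21 gene (GRCm38); the 2300 unmatched held 3.93% to 4.23% of KPC reads and 1.45% to 3.04% of KPC-OG reads.

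Estimated counts were summed per gene and rounded, giving 7061358 to 10847133 counts in KPC and 13411378 to 18026732 in KPC-OG. The counts were tested with edgeR 4.0.16 (R 4.3.3; filterByExpr, TMM, robust quasi-likelihood fit, no covariate), with checks by DESeq2 1.42.0 and limma 3.58.1 and other scalings. SEs were derived from the fold change and its F statistic. Deposited TPM were summed per gene and tested with limma as log2(TPM + 1). The edgeR fit was tested on simulated counts in which both groups shared an abundance profile apart from planted changes. That simulation could not show how the fit behaves where library composition differs as it does here. No 2 libraries of a group agreed within sampling noise (chi-square per degree of freedom at least 16.1).

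The 8 genes and the lists were chosen with earlier results of these data known. All 8 are named. From each list the text names the 3 passing genes with the smallest adjusted p in each direction, all passing genes where 5 or fewer passed, or, where fewer than 2 passed, the most abundant. Other list genes are given as examples. Genes most like the 8 were the 5 with the highest r. Some genes of the pathway are not reported here.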

Additional observations from a re-analysis of the deposited data

Results flagged for a closer look

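In groups of 4 libraries, 1 library stood apart from the other 3 by more than Dixon's 95% critical value in 5 of the 56 groups examined, and chance flags about 1 in 20. Among the 8 genes this concerned Cyp51, at 16.8 CPM in KPC-OG 3 against 26.9 to 28.4 CPM in the others of its group. The other cases were Me1 at 42.0 CPM in KPC-OG 4 (32.7 to 33.3 CPM in the others), Nus1 at 37.9 CPM in KPC 3 (29.9 to 31.1 CPM), Nr1h2 at 16.8 CPM in KPC-OG 2 (19.1 to 19.3 CPM) and Nceh1 at 41.4 CPM in KPC 4 (35.5 to 36.1 CPM).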

How the results depend on the processing

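Scaling moved the counts of calls most. Against 2486 genes called higher and 2373 lower, library sizes alone gave 13078 and 99, TPM with a pseudocount of 1 gave 12946 and 125, and with 0.1 gave 12898 and 123. Library sizes re-centred on the median gene gave 917 and 1400, and TPM with equal medians gave 3519 and 1305. Against 1 of the 8 genes called higher, library sizes alone and both TPM pseudocounts gave 8, the re-centred sizes 0 (Hmgcs1 0.70, adjusted p 0.199), and DESeq2 and upper quartile scaling 2. Leaving out each library gave 1689 to 2880 genes higher, 1705 to 2548 lower, 0 to 3 of the 8 higher and 0 to 0 lower. Signs turned, in log2 units with library sizes alone, TPM plus 1 and TPM plus 0.1, for Sqle (1.69, 1.22, 1.40), Lss (1.52, 1.31, 1.55), Sc5d (1.38, 1.11, 1.19), Insig1 (0.80, 0.65, 0.67), Scap (1.04, 0.83, 0.89), Fads1 (0.54, 0.37, 0.39), Dhdds (1.32, 1.19, 1.30), Nus1 (1.23, 0.96, 1.06), Nceh1 (0.38, 0.38, 0.41) and Scarb1 (1.05, 0.92, 0.97), and with library sizes alone for Vldlr (0.081). Lss also turned with equal TPM medians (0.12) and Fdft1 with a transcript length offset (-0.017). Leaving out single libraries gave -0.18 to 0.020 for Sqle, -0.060 to 0.18 for Fdft1, -0.14 to 0.44 for Idi1 and -0.049 to 0.16 for Srebf2. Alternatives chosen after seeing the data were coding transcripts only (Lss 0.14, Fntb 0.10), pseudogene reads added, KPC-OG 2 and KPC-OG 3 left out (Sqle 0.0033), and counts thinned to one depth, which called 2 of the 8 (Hmgcs1 and Fdps; Sqle 0.013, Fdft1 -0.021). The cause of these changes was not tested.

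The replicate numbers are shared between groups. Deviations of same-numbered libraries correlated at 0.274, 0.275, 0.0385 and 0.0361, and 5 of 8 libraries correlated best with their own number. The labels do not say whether the numbers pair libraries, and these values do not settle it. The main fit used no pairing. A replicate block gave 2477 genes higher and 2418 lower and called 3 of the 8 (Hmgcs1, Cyp51 and Fdps); of the other named genes it ended the call of Sc5d (adjusted p 0.0598). Low KPC depth limits the precision: the 8 genes together had 390 to 876 counts per KPC library and 1813 to 6619 per KPC-OG library.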
